A study of Neurospora crassa with 12 samples.

Results

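The dim-5 deletion strain of Neurospora crassa, a filamentous fungus, was compared with wild type by sequencing of polyadenylated RNA from growing hyphae. The comparison used 8 of the 12 libraries of the series, chosen by the strain named in their titles, with 4 libraries per strain. Wild type (WT) was strain N150, labelled mat A. The mutant (Δdim-5) was strain N3944, in which the label gives dim-5 as replaced by the resistance marker bar+, and whose mating type is labelled "mat x". The remaining 4 libraries came from strain NKL2, labelled mat A and lacking the heterochromatic region LGIIK9het25 through replacement by hph (ΔLGIIK9het25). They shared the estimate of spread and are quoted only beside results of the main comparison. All strains were grown as shaken liquid cultures in Vogel's medium with 1.5% sucrose for 16 h at 32 °C. Each genotype was 1 strain, so that the deletion and the rest of the strain background, with any difference in mating type, cannot be told apart. The mating type gene matA-1, a gene of mat A, had counts in both strains, 125 in WT and 415 in Δdim-5. Whether these strains differ in mating type was not tested further. The labels do not say whether the 4 libraries of a strain came from separate cultures, so the p-values measure the spread between these libraries, which may be technical.

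DIM-5 is the histone methyltransferase that places trimethylation on lysine 9 of histone H3 in this fungus. The mark is bound by heterochromatin protein 1 (the gene hpo), which brings the DNA methyltransferase DIM-2 to the same sites. Marked chromatin covers AT-rich DNA with few genes, including the long gene-free stretches at the centromeres and the regions near the telomeres. The comparison therefore asks how transcript levels differ in a strain without that methyltransferase, gene by gene and along the linkage groups, as the chromosomes of this fungus are called.

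Counts in genes ran from 7164944 to 12423603 per library in WT and from 10920478 to 23925695 in Δdim-5 (exact permutation p = 0.0857, two-sided). Reads outside genes took 8.85% to 36.8% of a WT library and 3.62% to 7.29% of a Δdim-5 library, with no overlap (exact permutation p = 0.0286, the smallest possible with 4 against 4; adjusted p = 0.143 over 5 library measures). The part of this difference in the results below was not tested beyond the fit with that share as a covariate. Levels are given in CPM, counts per 1000000 counts of a library, scaled for composition. They compare a gene between libraries but not one gene with another. A gene was called when its adjusted p was under 0.05 in edgeR's quasi-likelihood test over all 8496 genes tested, out of 9730 listed. In bulk RNA, fewer cells of a kind and less RNA per cell cannot be told apart.

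The targeted gene was all but missing from the mutant. The dim-5 transcript (NCU04402) stood at 7.55, 7.32, 8.03 and 6.28 CPM in WT replicates 1 to 4 and at 0, 0, 0.053 and 0.0809 CPM in Δdim-5. In raw counts this was 297 against 3. The labelled genotype thus matched the counts in all 8 libraries. Hyphal genes were present in every library. The Woronin body gene hex-1 had 5740 ± 865 CPM in WT (SD, n = 4) against 4073 ± 662 in the mutant, the hyphal fusion gene so had 94.4 ± 11.4 and 77.8 ± 9.12 CPM, and the kinase gene cot-1 had 305 ± 70.7 and 256 ± 62.9 CPM. Of these 3 genes, 0 were called by edgeR, DESeq2 or limma-voom, and 1 had an unadjusted p under 0.05.

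Loss of dim-5 went with changes in both directions. Of 8496 genes tested, 1405 (16.5%) were called, 765 higher in Δdim-5 (9.0%) and 640 lower (7.53%). The rises were the larger changes, with a median log2 fold change of 1.59 among genes called higher and -1.03 among those called lower. At least 2-fold rises numbered 587 (6.91%) and at least 2-fold falls 340 (4.00%). At least 8-fold rises numbered 123 and at least 8-fold falls 62, and 25 genes rose and 16 fell at least 32-fold. When libraries were scaled by their totals only, falls outnumbered rises, at 756 against 652.

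Rises and falls came from genes of different abundance. Genes were sorted by their mean level in ΔLGIIK9het25, whose libraries belong to neither group compared, although they entered the filter on low counts and the estimate of spread. Of 372 genes with under 1 CPM there, 79 (21.2%) were called higher and 3 (0.806%) lower. From 1 to 10 CPM the shares were 17.3% higher and 3.49% lower of 1860 genes. From 10 to 100 CPM they were 6.19% higher and 8.93% lower of 4524 genes, and at 100 CPM or more they were 4.89% higher and 9.66% lower of 1740 genes. Genes with little transcript in that strain were thus more often among the rises, and well expressed genes more often among the falls. The filter on low counts keeps a gene with little transcript in a pair of strains only when the other strain has more, so the share of rises among the lowest genes is partly set by the filter.

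**Figure D1:**
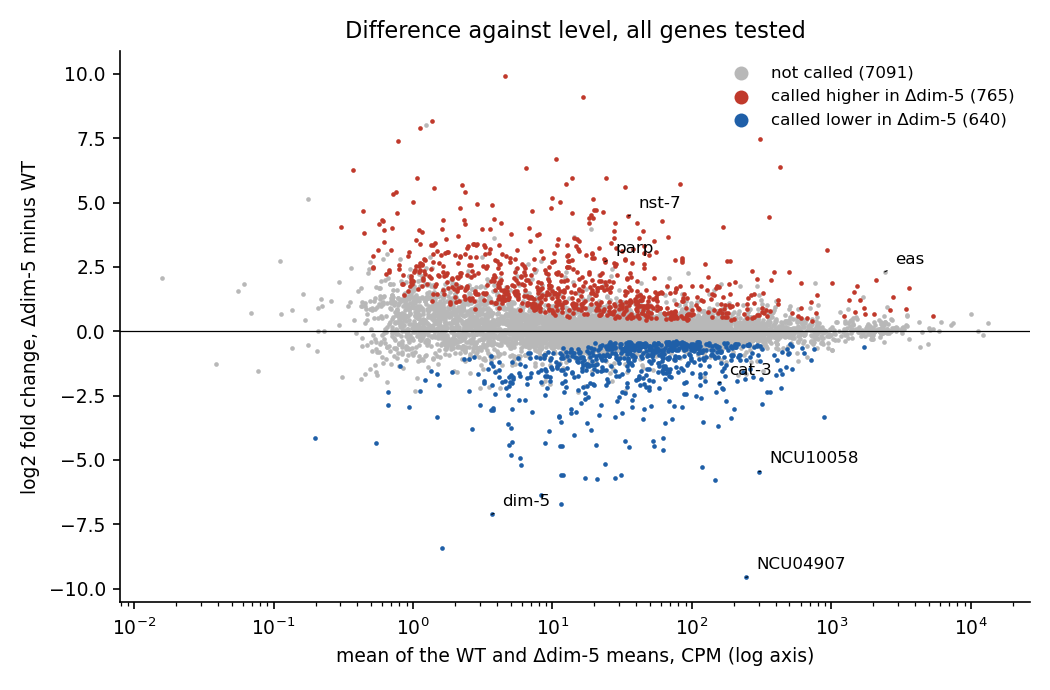
Log2 fold change of Δdim-5 against WT (vertical axis) for each of the 8496 genes tested, against the mean of its WT and Δdim-5 means in CPM (horizontal axis, log scale). Red points are the 765 genes called higher, blue points the 640 called lower, and the labelled gene eas was not called in spite of its log2 fold change of 2.30.

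The falls gathered beside the widest gene-free gaps. On each of the 7 linkage groups, the widest interval without a listed gene was located in RefSeq's gene list for assembly NC12, and the 20 listed genes on each side were read as 1 set. In this fungus the centromeres lie in such intervals; whether each gap is the centromere was not tested. Of the 280 listed genes beside these gaps, 250 were tested, and 80 of them (32%) were called lower in Δdim-5 while 8 (3.2%) were called higher. Among the other 8245 tested genes on the linkage groups, 560 (6.79%) were lower and 757 (9.18%) higher. The median log2 fold change was -0.31 beside the gaps and 0.02 elsewhere. Leaving out each library in turn gave 68 to 77 lower genes beside the gaps.

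The share of falls declined with distance from the gap, counted in genes. Among genes in places 1 to 5 from a gap, 32 of 55 tested (58.2%) were called lower, with a median log2 fold change of -1.04. The share was 37.9% in places 6 to 10 and 28.1% in places 11 to 15. It was 7.69% in places 16 to 20, close to the 7.53% of all genes tested. Farther out, up to place 60, it lay between 3.17% and 16.1% with no steady course, and the last 5 places had the highest of these values. Rises were few near the gaps, with 1.82% to 6.25% of genes called higher in each step of 5 places up to place 15 and 1.54% in places 16 to 20, beside 9.0% of all genes tested. The same count on windows of 10 and of 40 genes on each side gave 47.1% and 19.2% lower.

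**Figure D2:**
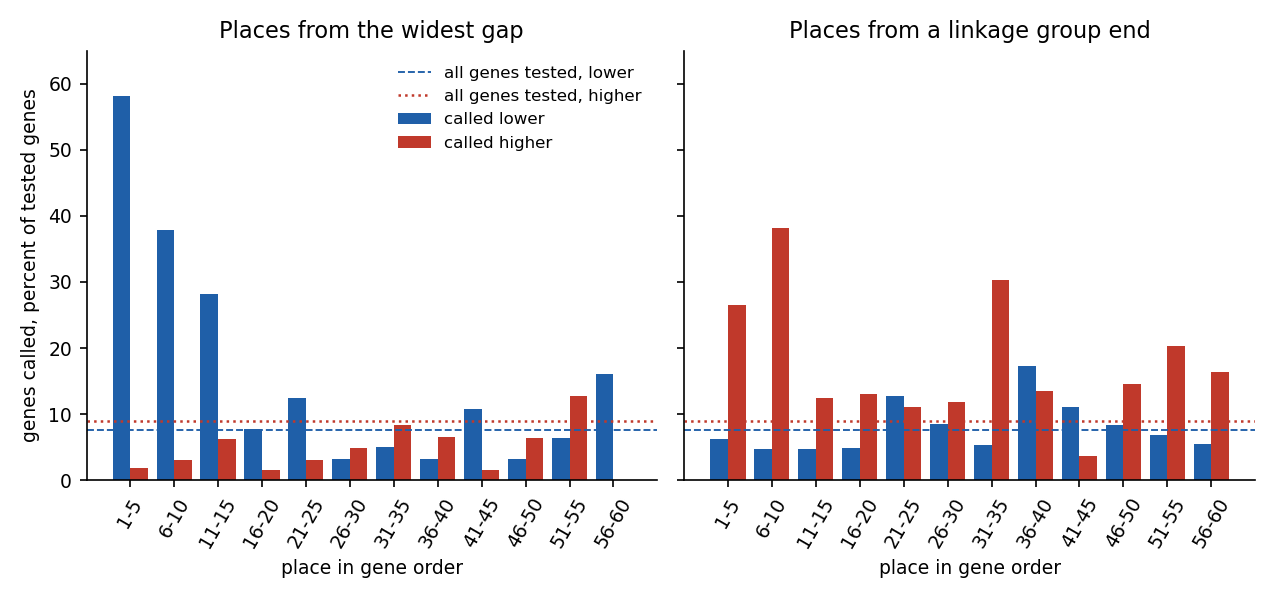
Percent of tested genes called lower (blue bars) and higher (red bars) in Δdim-5, in steps of 5 places from the widest gap of each linkage group (left) and from the linkage group ends (right), summed over the 7 linkage groups. Dashed and dotted lines mark the shares among all genes tested, 7.53% lower and 9.0% higher; falls reach 58.2% next to the gaps and rises reach 38.1% in places 6 to 10 from an end.

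The share of falls beside the gap differed between the 7 linkage groups and between the sides of a gap. Among all genes tested, 7.53% were called lower. On linkage group VII, 11 of 17 tested genes before the gap and 8 of 19 after it were called lower. On linkage group I the counts were 10 of 17 and 10 of 20, and on V they were 8 of 16 and 4 of 20. Linkage group II was one-sided, with 10 of 19 lower before the gap and 0 of 16 after it, where 3 genes were called higher. The counts were 4 of 16 and 2 of 20 on III, 2 of 15 and 4 of 17 on IV, and 1 of 19 and 6 of 19 on VI. Some of these shares were near that of all genes tested, with 10% after the gap on III and 5.26% before it on VI.

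**Figure D3:**
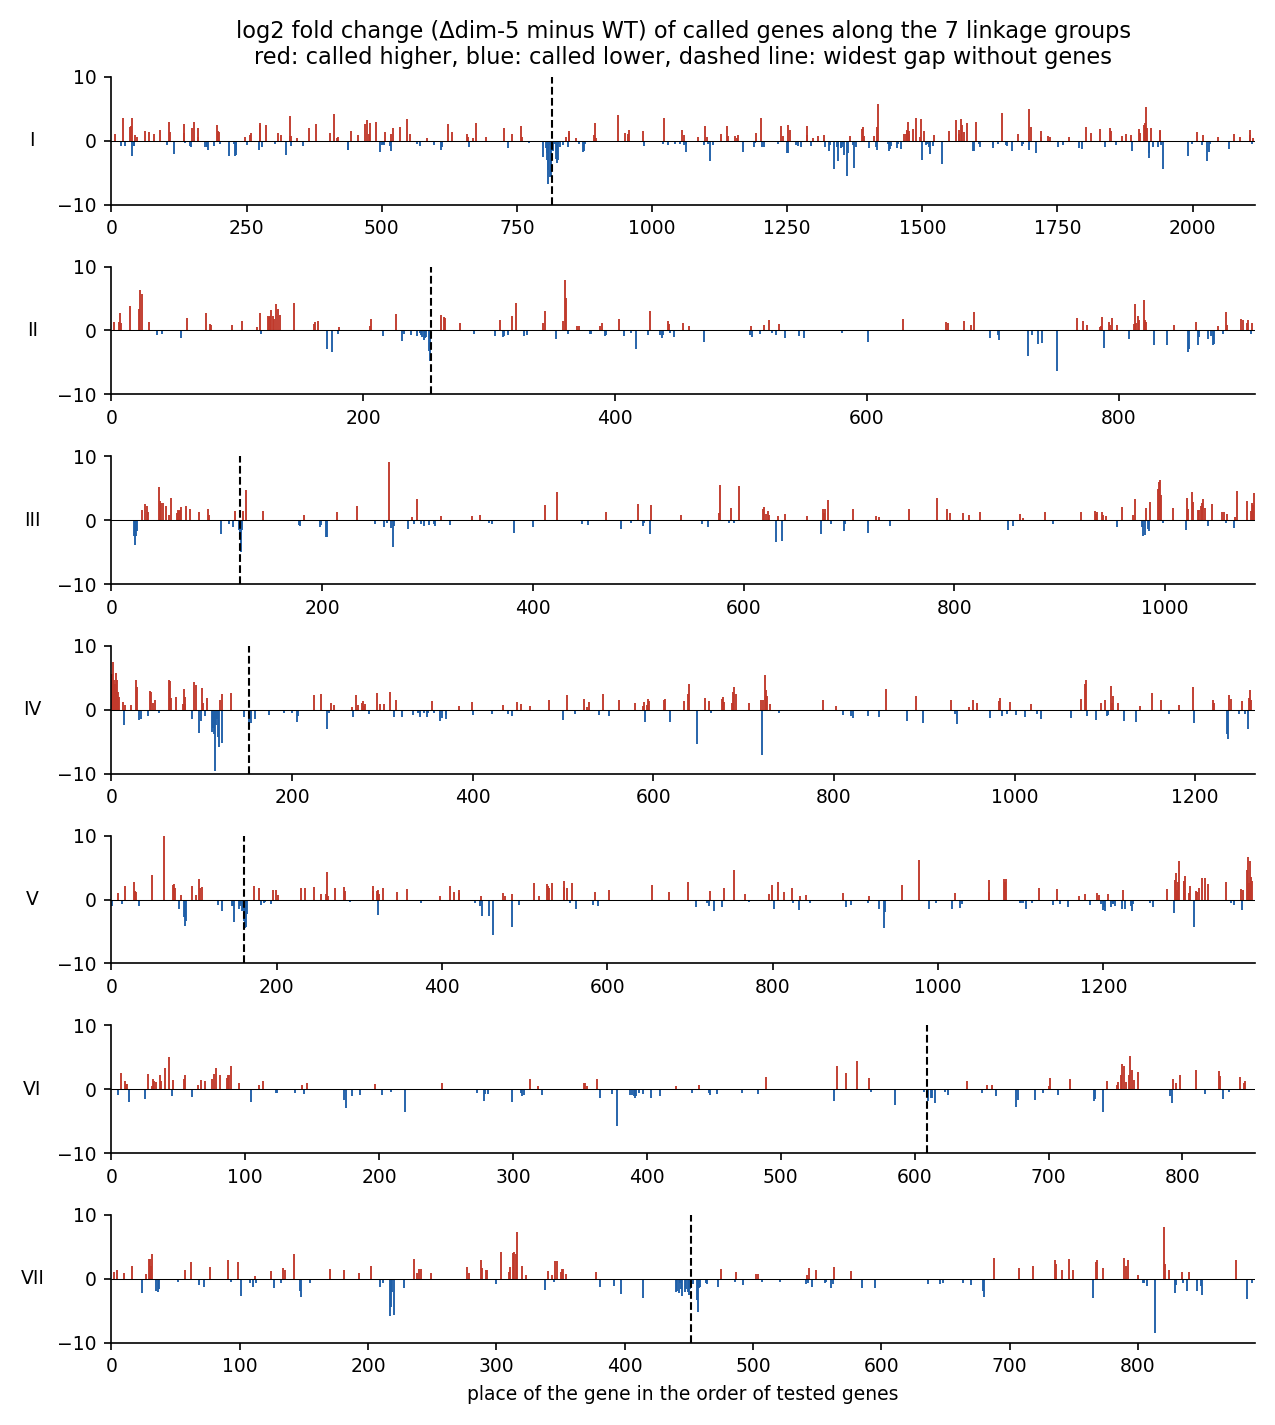
Log2 fold change of every called gene along the 7 linkage groups, with tested genes in their order on the horizontal axis. Red lines are genes called higher, blue lines genes called lower, and the dashed line marks the widest gap, beside which blue lines gather on linkage groups I, II, V and VII.

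Linkage group VII showed the pattern gene by gene. The genes next to its gap were NCU02450 on one side and NCU02438 on the other. NCU02450 had 88.7, 93.3, 90.8 and 100 CPM in WT against 30.7, 30.1, 25.1 and 34.4 CPM in the mutant (edgeR, log2 fold change -1.63 with SE 0.12, adjusted p = 1.58e-06). NCU02438 had 393, 342, 346 and 447 CPM in WT against 99.8, 163, 153 and 130 CPM in the mutant (edgeR, log2 fold change -1.49 with SE 0.19, adjusted p = 0.000144). All 4 mutant libraries lay below all WT libraries for both genes, which was so for 9.43% of all genes tested, while 10.9% had all mutant libraries above WT. Farther out, in place 4, NCU02453 had 185, 174, 184 and 195 CPM in WT against 47.5, 44, 44.2 and 37.6 CPM in the mutant. In place 8, NCU02458 had 29.5 ± 2.11 CPM in WT against 4.72 ± 0.479 CPM in the mutant. On the other side, in place 7, NCU02433 fell the most of this set, from 46.7, 53.9, 45.5 and 38.8 CPM to 0.6, 1.18, 1.11 and 1.94 CPM (edgeR, log2 fold change -5.18 with SE 0.27, adjusted p = 9.98e-08).

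Not every gene there fell. The genes for the core histones H2A (hH2A) and H2B (hH2B) lie in places 3 and 5 after the gap, among the called genes. The hH2A level was 1543 CPM in WT against 1281 CPM in the mutant (adjusted p = 0.299 in edgeR), and the hH2B level was 2400 and 2041 CPM (adjusted p = 0.329 in edgeR). Beyond place 14 on that side no tested gene was called up to place 20, and met-7, a gene of methionine synthesis in place 10, was not called either. The quinic acid cluster is a known neighbour of the centromere of linkage group VII. Only its gene qa-X lies in the set, in place 20 before the gap, and the others lie farther out. Of the 7 genes of the cluster, 0 were called in either direction, with 1 at an unadjusted p under 0.05 and 0 called by DESeq2 or limma-voom.

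**Figure D4:**
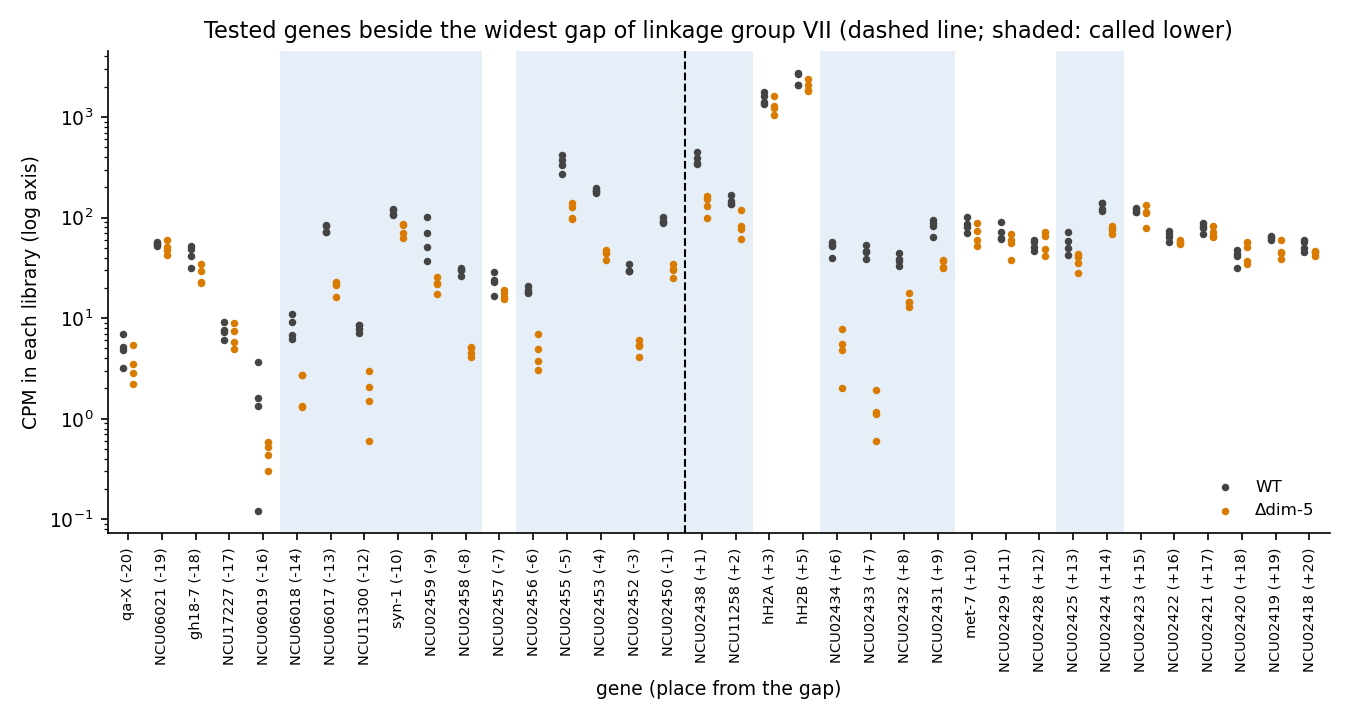
CPM in each library (vertical axis, log scale) for the tested genes within 20 places of the widest gap of linkage group VII (dashed line), in gene order, with the place in brackets. Grey points are the 4 WT libraries, orange points the 4 Δdim-5 libraries, and shaded genes are the 19 called lower.

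On linkage group I, some falls beside the gap were large. NCU10058, in place 6 before the gap, had 532, 485, 617 and 718 CPM in WT against 11.6, 11.2, 13.9 and 16.4 CPM in the mutant (edgeR, log2 fold change -5.46 with SE 0.21, adjusted p = 7.1e-09). Its neighbour NCU09994, in place 7, had 33.4 ± 0.883 CPM in WT against 0.668 ± 0.64 CPM in the mutant. NCU09999, in place 11, had 110, 138, 109 and 119 CPM in WT against 1.3, 6.1, 6.04 and 5.7 CPM in the mutant. None of these 3 genes overlapped between the strains, but genes were named with their values known, so this adds no evidence. Their mean levels in ΔLGIIK9het25 were 530, 38.9 and 111 CPM, near those of WT. None of the 3 has a symbol in the reference table.

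Some genes beside the other gaps carry a name. On linkage group III, acr-2 is a gene of acriflavine resistance long used as a marker linked to the centromere of that linkage group. It had 17.6, 19.6, 19.8 and 25 CPM in WT against 8.9, 6.02, 6.83 and 5.9 CPM in the mutant (edgeR, log2 fold change -1.57 with SE 0.20, adjusted p = 0.000122). Across that gap, NCU07815 fell from 11.3 ± 1.6 to 0.385 ± 0.538 CPM, while ncw-3, a cell wall protein gene 2 places farther, rose from 756 ± 226 to 2149 ± 786 CPM. On linkage group V, NCU04676 in place 2 fell from 102 ± 32.4 to 4.52 ± 1.25 CPM. On linkage group II, gh61-6, of the family of lytic polysaccharide monooxygenases, had 4.83, 15.2, 9.21 and 10 CPM in WT against 0.2, 0.294, 0.636 and 0.202 CPM in the mutant in place 2 before the gap. On linkage group VI, the polyketide synthase gene pks-1 lies next to the gap and had 18.4, 15.2, 11.6 and 14.1 CPM in WT against 1.6, 6.46, 3.39 and 5.5 CPM in the mutant (edgeR, log2 fold change -1.79 with SE 0.33, adjusted p = 0.00237). In each of these genes the libraries of the strains did not overlap, but the genes were named with their values known. Over all genes tested, 9.43% had all mutant libraries below WT and 10.9% had them above.

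Against the strain with 1 heterochromatic region removed, Δdim-5 was also often lower over this set of 250 genes. In the direct test of Δdim-5 against ΔLGIIK9het25, 79 of the 250 genes (31.6%) were lower in Δdim-5 and 7 higher, where 7.92% of all genes tested were lower and 8.83% higher. Between ΔLGIIK9het25 and WT, 5 of the 250 (2%) were lower and 19 (7.6%) higher, beside 1.24% and 3.08% of all genes. These comparisons share libraries with the main one and are not independent of it.

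Large falls lay beside a gap more often than falls as a whole. Of all 640 genes called lower, 80 (12.5%) lay within 20 places of a widest gap, where 2.94% of tested genes lie. Of the 62 genes that fell at least 8-fold, 17 (27.4%) lay there, as did 9 of 33 (27.3%) that fell at least 16-fold and 4 of 16 (25%) at least 32-fold. Of the 80 falls beside the gaps, 58 were at least 2-fold, and the median log2 fold change of the 80 was -1.53. Of the 123 genes that rose at least 8-fold, 1 (0.813%) lay beside a widest gap.

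Genes beside other wide gaps were also called lower more often than the 7.53% of all genes tested. Each gene was counted for the gap on either side of it, and the set above was left out. For this count the gaps were ranked without the widest gap of each linkage group. Genes bordering the 50 widest gaps of this ranking were called lower in 19 of 73 cases (26%) and higher in 7 (9.59%). At gap ranks 51 to 150 the share called lower was 21.4% of 159 genes, at ranks 151 to 500 it was 9.26% of 551, and at ranks 501 to 1500 it was 8.42% of 1509. Genes bordering still narrower gaps were called lower in 6.63% of 7980 cases. Ranks from here on count all gaps of the genome. Taking the genes that border its 150 widest gaps together with those within 20 places of a widest gap covers 5.51% of tested genes. This set held 29 of the 62 falls of at least 8-fold (46.8%) and 3 of the 123 rises of that size (2.44%). The gene NCU08696 is an example. It borders the ninth widest gap of the genome on linkage group II, and it had 14.9, 19.6, 15.7 and 15.2 CPM in WT against 0, 0.22, 0.212 and 0.243 CPM in the mutant. In ΔLGIIK9het25 the same gene had 233 ± 97.3 CPM, above WT (log2 fold change 3.83, adjusted p = 1.87e-05 in edgeR). NCU10009, on linkage group VI, borders a gap of rank 147 and fell from 55.4 ± 12 to 1.01 ± 0.338 CPM.

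Large falls also occurred away from wide gaps. The largest of all, NCU04907 on linkage group IV, lies in place 60 before the widest gap and had 313, 603, 483 and 540 CPM in WT against 1, 0.808, 0.265 and 0.607 CPM in the mutant. It belongs to 6 neighbouring tested genes, NCU16741 to NCU04910, that were all called lower, with log2 fold changes from -9.56 to -1.44. NCU03816 on linkage group V and NCU00992 on linkage group I fell from 23.5 ± 1.7 to 0.48 ± 0.337 CPM and from 60.7 ± 35 to 1.26 ± 0.695 CPM, beside gaps of ranks 2669 and 383. By the change in CPM, the largest falls included NCU00265, from 1601 ± 844 to 158 ± 67.1 CPM, NCU10687, from 611 ± 139 to 119 ± 20.8 CPM, and mig-6, from 709 ± 408 to 155 ± 41 CPM.

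Rises gathered near linkage group ends. Among the 25 listed genes nearest each of the 14 ends, 315 of 350 were tested and 64 (20.3%) were called higher, against 9.0% of all genes tested, while 21 (6.67%) were called lower. The median log2 fold change was 0.20 near the ends and 0.01 over all genes. The share called higher was 26.6% in places 1 to 5 and 38.1% in places 6 to 10. It then lay between 11.1% and 13.1% up to place 30. It was 30.4% in places 31 to 35, and at most 20.3% from there to place 60. Of the 25 genes that rose at least 32-fold, 7 (28%) lay within 25 places of an end, where 3.71% of tested genes lie.

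The ends differed from each other. The first 25 genes of linkage group IV had 11 of 22 tested genes called higher, the last 25 of V had 9 of 22, and the first 25 of II had 8 of 24. The first 25 of III had 0 of 25 called higher and 4 called lower, and the first 25 of I and the last 25 of VII had 1 each. Leaving out each library in turn gave 44 to 62 genes called higher near the ends. At the ends Δdim-5 was also above ΔLGIIK9het25, with 67 of 315 genes higher, beside 8.83% of all genes tested.

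Some ends rose as blocks. The first 8 tested genes of linkage group IV, NCU10285 to NCU10572, were all called higher, with log2 fold changes from 2.00 to 7.47. NCU09637 had 12.9, 21.2, 22.1 and 20.2 CPM in WT against 191, 578, 393 and 92.8 CPM in the mutant, and NCU09639 in the same block had 3.05 ± 0.643 CPM in WT against 121, 401, 89.9 and 31.7 CPM in the mutant. In the mutant, replicate 2 was highest and replicate 4 lowest for both genes. On linkage group V, 7 neighbouring tested genes close to the end, NCU17053 to NCU07147, were called higher, with log2 fold changes from 2.53 to 6.70. Among them NCU07150 had 0.965, 0.439, 0.516 and 1.09 CPM in WT against 40, 48.4, 59.9 and 41.9 CPM in the mutant. Over the genome, stretches of at least 4 neighbouring tested genes called in 1 direction numbered 16 for rises, with 76 genes (9.93% of those called higher), and 14 for falls, with 70 genes (10.9% of those called lower).

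Some transcripts were near 0 in WT and present in Δdim-5. Counting genes with no more than 3 counts in all libraries of a strain and 5 or more in every library of the other strain, 28 genes were near 0 in WT and 3 in Δdim-5. The rule used raw counts, and the larger library totals of Δdim-5 favour the first of these numbers. NCU07770 had 0 counts in WT and 605 in Δdim-5, 120-fold higher at a floor of 3 counts over WT. Its exact 95% counting interval began at 97.5-fold. NCU05823 had 0 and 174, 34.6-fold higher at that floor, with an interval from 27.8-fold. In CPM, NCU07770 stood at 8.2, 12.1, 8.21 and 8.21 in the mutant libraries. NCU06476 had 0, 0.146, 0 and 0.121 CPM in WT against 30.1, 50.8, 24.7 and 26.8 CPM in the mutant. In ΔLGIIK9het25 the mean levels of these 3 genes were 0.0153, 0.278 and 0.264 CPM. In the other direction, NCU17277 had 129 counts in WT and 0 in Δdim-5, and NCU00976 had 44 and 3. At a floor of 3 counts over Δdim-5, NCU17277 was 72.1-fold lower, with an interval from 57.8-fold. Counting intervals and floors cover counting error only.

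Genes beside dim-5 itself also rose. The dim-5 gene lies on linkage group IV, in place 627 after the widest gap. Of the 10 listed genes after it, 6 were tested and 4 were called higher, beside 9.0% of all genes tested, and of the 10 before it, 9 were tested and 1 was called. The direct neighbours NCU16819 and NCU10110 rose from 7.67 ± 1.43 to 21.4 ± 6.83 CPM and from 4.13 ± 0.875 to 11.5 ± 5.28 CPM. The gene neg-1, for an endoglucanase of the cell wall, had 4.91, 1.61, 3.32 and 2.66 CPM in WT against 34.2, 25.9, 37 and 14 CPM in the mutant (edgeR, log2 fold change 3.12 with SE 0.47, adjusted p = 0.000642). NCU04398 had 4 counts in WT and 378 in Δdim-5, and NCU04394 had 14 and 112, the latter with an adjusted p of 0.0503 in edgeR without Δdim-5 replicate 4. The filter on low counts keeps genes with so few WT counts only when another strain has more. The share of 4 in 6 is thus partly set by the filter. An effect of the deletion on its own locus and an effect of the missing enzyme cannot be told apart here.

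Few other genes of the silencing machinery were called. The lists are short and 16.5% of all genes tested were called, so these counts do not set the lists apart. Of 13 genes of H3K9 and DNA methylation, dim-5 alone was called, and the other 12 had log2 fold changes from -0.44 (dmm-1, which limits the spread of heterochromatin) to 1.17 (rid-1, needed for repeat-induced point mutation), with a lowest adjusted p of 0.0615. The dim-2 level was 42.7 ± 7.27 CPM in WT against 39.1 ± 4.3 CPM in the mutant, and the hpo level 74.7 ± 6.61 and 67.7 ± 13 CPM. The dmm-1 gene was called lower by DESeq2 (adjusted p = 0.0321) and under scaling by totals only (adjusted p = 0.0477 in edgeR), and rid-1 was called higher without Δdim-5 replicate 1 (adjusted p = 0.0312 in edgeR). Of 5 other histone methyltransferase genes and of 6 tested genes of quelling and meiotic silencing, the RNA-based silencing routes, 0 were called by edgeR, DESeq2 or limma-voom and 1 in each list had an unadjusted p under 0.05 in edgeR. Without Δdim-5 replicate 1, 1 of the 5 methyltransferase genes was called higher. Among 7 histone genes, the linker histone gene hH1 was lower, at 707, 729, 760 and 816 CPM in WT against 506, 401, 546 and 484 CPM in the mutant (edgeR, log2 fold change -0.64 with SE 0.13, adjusted p = 0.00386). Among 10 tested histone deacetylase and sirtuin genes, 1 was called. This was nst-7, of the sirtuin family, with 3.77, 2.05, 2.87 and 3.14 CPM in WT against 62.4, 69.1, 77.8 and 58.6 CPM in the mutant (edgeR, log2 fold change 4.48 with SE 0.22, adjusted p = 5.35e-08). In ΔLGIIK9het25 nst-7 had 11.2 ± 2.01 CPM. Among 12 chromatin remodelling factor genes, crf5-1 was the 1 called (2 were higher without WT replicate 2 or Δdim-5 replicate 3, and 1 was lower without Δdim-5 replicate 2 or 4), at 26 ± 10.2 CPM in WT against 60.5 ± 7.44 CPM in the mutant.

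A few DNA repair genes were higher. Of 26 tested, 5 were called higher (19.2%, beside 9.0% of all genes tested) and 0 lower (beside 7.53%), 20 had a log2 fold change above 0, and the median was 0.31, against 0.01 over all genes. The gene mus-18, for a UV-damage endonuclease, had 88.7, 74.4, 51.9 and 34.6 CPM in WT against 121, 169, 156 and 176 CPM in the mutant (edgeR, log2 fold change 1.32 with SE 0.30, adjusted p = 0.00892). Of the other called genes, 3 are described here, with smaller differences. The MRE11 homolog mus-23 had 11.5 ± 1.89 CPM in WT against 20.5 ± 5.25 CPM in the mutant, the RAD54 homolog mus-25 had 8.12 ± 1.13 and 12.7 ± 1.77 CPM, and mus-26 had 1.95 ± 0.193 and 3.58 ± 0.654 CPM. Each of these 3 lost its call under some of 20 alternative fits (4 for mus-23, 13 for mus-25 and 13 for mus-26), while mus-18 kept it in all 20. The list's count of 5 became 2 without WT replicate 1, 2 or 3, 1 without WT replicate 4, 2 without Δdim-5 replicate 2 or 3, and 3 without Δdim-5 replicate 4. The list's median was 0.24 to 0.34 over the 20 alternatives.

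A few further genes of damage response, chosen after their values were seen, were also called higher. The gene parp, for poly(ADP-ribose) polymerase, had 7.2, 6.44, 6.85 and 4.71 CPM in WT against 37.9, 46.3, 48.8 and 31.3 CPM in the mutant (edgeR, log2 fold change 2.70 with SE 0.26, adjusted p = 1.16e-05). Its level in ΔLGIIK9het25 was 5.66 ± 1.99 CPM, and it opens a stretch of 4 neighbouring genes called higher on linkage group V, of which mus-18 is the third. The gene csb, for a homolog of the Cockayne syndrome B protein of transcription-coupled repair, had 23.4 ± 2.98 CPM in WT against 61.9 ± 11 CPM in the mutant. The gene rad16 had 11, 10.7, 13.1 and 12.8 CPM in WT against 20.4, 30.1, 20.1 and 18.9 CPM in the mutant (edgeR, log2 fold change 0.91 with SE 0.19, adjusted p = 0.00611). For all 3 the strains did not overlap, which was known when they were chosen.

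**Figure D5:**
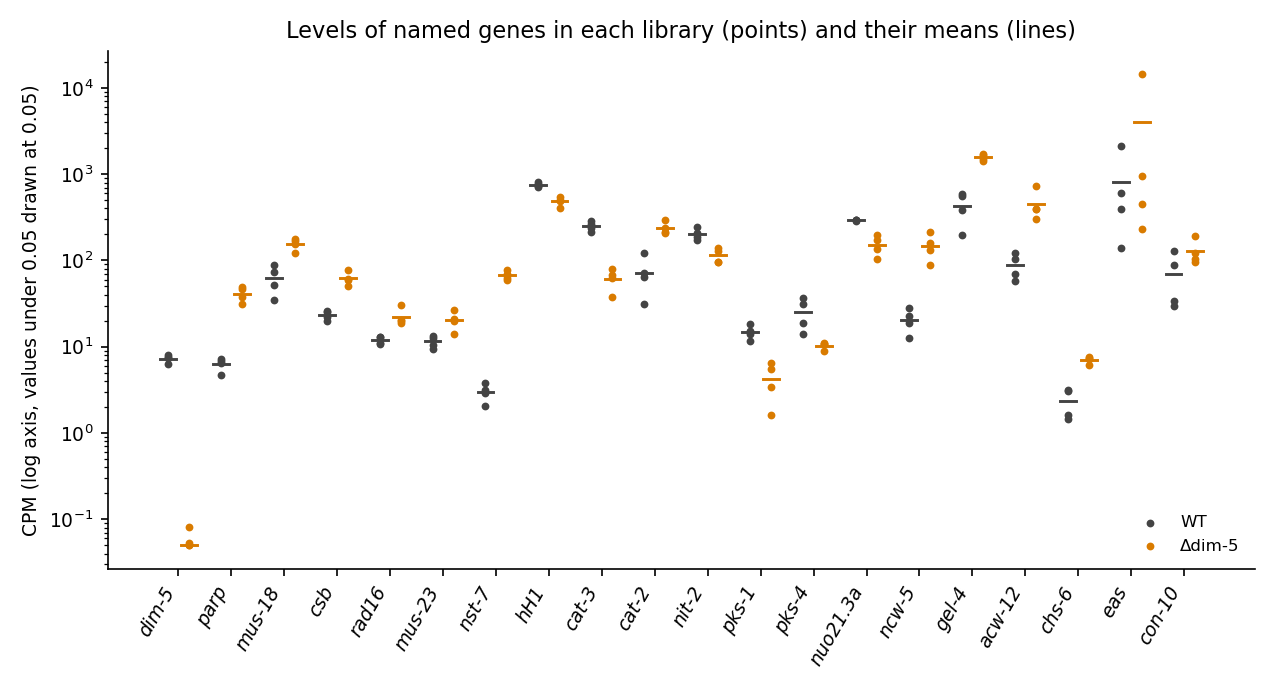
CPM of named genes in each library (points, vertical log axis) with the mean of the strain (short lines), WT in grey and Δdim-5 in orange; values under 0.05 are drawn at 0.05. The repair genes on the left are higher in the mutant, cat-3, nit-2 and the polyketide synthase genes are lower, and the conidial genes eas and con-10 on the right overlap between the strains.

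Cell wall genes were among the rises. Of 17 genes of cell wall and anchored surface proteins, 6 were called higher (35.3%, beside 9.0% of all genes tested) and 0 lower (beside 7.53%), with a median log2 fold change of 0.32. DESeq2 called 6 higher and 2 lower, and limma-voom 6 and 1. When libraries were scaled by their totals only, the counts were 5 and 2, and without WT replicate 4 or Δdim-5 replicate 2 they were 4 and 1 or 5 and 1. The ncw-5 level was 19, 28, 12.7 and 22.6 CPM in WT against 159, 214, 88 and 133 CPM in the mutant (edgeR, log2 fold change 2.86 with SE 0.37, adjusted p = 0.000164). The acw-12 level rose from 88.6 ± 29.8 to 454 ± 184 CPM, and it was 323 ± 123 CPM in ΔLGIIK9het25, also above WT (adjusted p = 0.00661 in edgeR). Outside that list, gel-4, for a glucan-remodelling enzyme of the wall, rose from 433 ± 183 to 1590 ± 138 CPM. Among 5 chitin synthase genes, chs-6 was called higher, from 2.33 ± 0.924 to 7.07 ± 0.64 CPM, and 1 was called lower, which was lost without WT replicate 1 or 2 or Δdim-5 replicate 2 or 3. Among 72 tested glycoside hydrolase genes, 9 were called higher and 8 lower, together 23.6% beside 16.5% of all genes tested, the rises including gh18-4, of the chitinase family, at 1.89 ± 0.853 CPM in WT against 19.6 ± 5.63 CPM in the mutant.

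Redox and nitrogen genes moved singly. The catalase gene cat-3 had 283, 262, 235 and 214 CPM in WT against 63.3, 78.5, 67.1 and 37.2 CPM in the mutant (edgeR, log2 fold change -2.02 with SE 0.27, adjusted p = 0.000216). The catalase-peroxidase gene cat-2 had 31.1, 64.7, 123 and 70.6 CPM in WT against 293, 207, 216 and 235 CPM in the mutant (edgeR, log2 fold change 1.71 with SE 0.41, adjusted p = 0.0122). One of these catalases was thus lower and the other higher, in libraries that did not overlap. Of 8 oxidative stress genes, 2 were called higher and 1 lower (together 37.5%, beside 16.5% of all genes tested). The number called higher was 1 without WT replicate 1, 2 or 3 or Δdim-5 replicate 1, 2 or 4. Of 6 nitrogen genes, all had log2 fold changes below 0 and 2 were called lower (33.3%, beside 7.53% of all genes tested). Both lists are short, so their shares are uncertain. The activator gene nit-2 went from 204 ± 31.8 to 115 ± 21.2 CPM. The nitrate reductase gene nit-3 went from 144 ± 75.6 to 36.7 ± 18.9 CPM with overlapping libraries, and its call was lost without WT replicate 2, 3 or 4 or Δdim-5 replicate 2 or 3, with the replicate block and with the share of reads outside genes as covariate (adjusted p from 0.0535 to 0.0878 in edgeR).

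Some polyketide synthase genes were lower, while the shares of complex I and peroxin genes called lower were near that of all genes tested. Of 5 tested polyketide synthase genes, 3 were called lower and 0 higher (60%, beside 7.53% lower among all genes tested), with a median log2 fold change of -1.29. Beside pks-1, described above, pks-3 went from 83.7 ± 31 to 32.3 ± 10.2 CPM and pks-4 from 25.2 ± 10.6 to 10.3 ± 1.01 CPM. The pks-4 gene borders a gap of rank 34, so that pks-1 and pks-4 are also among the falls beside wide gaps. The pks-3 call was lost without WT replicate 1 or 4 or Δdim-5 replicate 1, 3 or 4 and with the replicate block (adjusted p from 0.062 to 0.0961 in edgeR). Of 29 genes of respiratory complex I, 3 were called lower and 0 higher (10.3%, beside 7.53% lower among all genes tested), with a median of -0.29 and 1 gene above 0. The largest of these falls was nuo21.3a, at 291, 295, 283 and 292 CPM in WT against 172, 105, 196 and 135 CPM in the mutant. The complex I count was 1 without WT replicate 2, 3 or 4 or Δdim-5 replicate 2 or 4, and 5 without Δdim-5 replicate 3. Of 20 peroxin genes, which build peroxisomes, 2 were called lower and 0 higher (10%, beside the same 7.53%), pex11 from 90.5 ± 27.5 to 43.5 ± 7.19 CPM and pex6 from 63.3 ± 4.55 to 33.2 ± 7 CPM, and the count was 4 without Δdim-5 replicate 1.

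Several groups had no called gene in edgeR. They were 7 cytosolic ribosomal protein genes and 17 proteasome regulatory genes, both with 0 genes at an unadjusted p under 0.05 and 0 called by DESeq2 or limma-voom. They were also 8 clock and photoreceptor genes and 10 cellulose degradation genes, with 1 gene each at that level and 1 each called by DESeq2. The others were 5 tested mating genes, with 0 at that level and 0 called by DESeq2, and 21 mitochondrial import genes, with 3 at that level and 1 called by DESeq2. In edgeR, 1 clock gene was called lower without Δdim-5 replicate 4, 1 cellulose gene and 1 mating gene were higher without WT replicate 3, and 2 or 1 import genes were higher without Δdim-5 replicate 1 or 4. Of 51 amino acid synthesis genes, 5 were called higher and 2 lower, a share of 13.7%, beside 16.5% of all genes tested. Fits without 1 library gave 2 to 5 higher and 0 to 3 lower, with 2 higher without WT replicate 2 or 3 or Δdim-5 replicate 4 and 0 lower without WT replicate 3 or 4 or Δdim-5 replicate 1 or 2.

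Conidiation genes were uneven between libraries of both strains. Of 11 such genes, 0 were called by edgeR, 1 by DESeq2 and 0 by limma-voom, and 3 had an unadjusted p under 0.05, with a median log2 fold change of 0.87 and 10 genes above 0. Without WT replicate 1 or Δdim-5 replicate 3, 1 was called higher in edgeR. The rodlet gene eas, which coats conidia, had 138, 612, 2100 and 391 CPM in WT against 452, 14365, 232 and 950 CPM in the mutant. Replicate 2 of Δdim-5 stood far above the rest, and without it the log2 fold change of eas turned from 2.30 to -0.57. The summed level of the 11 genes was 5503 CPM in WT replicate 3 and 1443 to 1563 CPM in the other WT libraries. It was 17607 CPM in Δdim-5 replicate 2 and 1316 to 2392 CPM in the other mutant libraries. Without eas it was 3403 CPM in WT replicate 3 and 951 to 1305 CPM in the other WT libraries. In the mutant it was then 3242 CPM in replicate 2 and 1084 to 1442 CPM in the others. The developmental regulator gene fl had 35.2 ± 8.38 CPM in WT against 38.4 ± 15.8 CPM in the mutant. Conidial genes con-6 and con-10 had 40.3 ± 28.2 and 69.8 ± 46.7 CPM in WT against 89.3 ± 39 and 128 ± 44.4 CPM in the mutant, with overlap, and con-6 was called higher without WT replicate 1 (adjusted p = 0.0499 in edgeR). The alternative oxidase gene aod-3 was also highest in replicate 2 of the mutant, at 12.5, 246, 40.3 and 35.1 CPM against 5.16 to 6.4 CPM in WT, and its call was lost without that library (adjusted p = 0.0534 in edgeR), in limma-voom (adjusted p = 0.115) and with the share of reads outside genes as covariate (adjusted p = 0.103 in edgeR). The part of conidiating cells in the other results was not tested.

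Among the rises with the largest change in CPM were 3 abundant transcripts. NCU00399 had 1659, 2335, 1094 and 1713 CPM in WT against 7747, 4169, 5683 and 4388 CPM in the mutant (edgeR, log2 fold change 1.69 with SE 0.25, adjusted p = 0.000571). NCU03600 went from 1578 ± 273 to 3956 ± 474 CPM. The clock-controlled gene ccg-13 went from 835 ± 250 CPM to 4558, 4684, 2064 and 1968 CPM in the mutant libraries, where replicates 1 and 2 stood above replicates 3 and 4. Of the low transcripts that rose, NCU09603 on linkage group II went from 0.461 ± 0.197 to 24.5 ± 5.81 CPM and NCU09956 on linkage group V from 0.426 ± 0.324 to 27.4 ± 5.68 CPM. In ΔLGIIK9het25, NCU09603 had 3.03 ± 1.68 CPM, called above WT (adjusted p = 0.00769 in edgeR), and NCU09956 had 1.17 ± 1.66 CPM, which was not called.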

How the data were processed

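Messenger RNA of 12 libraries (3 strains, 4 each) was measured. Polyadenylated RNA went into directional libraries read as single ends of 118 nt, per the labels. For every library the authors deposited raw counts of reads over 9730 genes, and the submitters' processing notes name HISAT2, HTSeq and DESeq2 without versions or roles. The sources used here do not give the genome build or annotation. The names of the deposited tables state that strand was ignored in counting, so values of overlapping, antisense and near-identical genes are uncertain. The tables of WT and ΔLGIIK9het25 end their lines in another way than those of Δdim-5. Any separate handling of the Δdim-5 libraries or tables cannot be told apart from the strain.

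The 5 entries that name no gene (per library, outside genes 3.62% to 36.8%) were left out. The test on the deposited counts used edgeR 4.0.16 under R 4.3.3 (filterByExpr by strain, TMM, glmQLFit and glmQLFTest) in 1 fit of all 12 libraries without covariates, with 9 residual degrees of freedom. The contrast was Δdim-5 minus WT, with p-values adjusted by the Benjamini-Hochberg method. CPM were computed from the same counts with TMM-scaled totals. The SE is the size of the log2 fold change divided by the root of F. Library measures had exact two-sided permutation tests. The scripts were tested on simulated data.

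Members, gene lists and the naming rule were chosen with earlier results of these data known. The rule took, among called genes without overlap, the 10 largest rises and falls by log2 fold change with at least 5 CPM on average and the 5 largest of each by CPM, the markers and H3K9 genes, up to 4 called genes of each list, stretches, neighbours of dim-5 and transcripts near 0. Families named by a shared symbol, and the places beside gaps, were added after the data were seen. The genes NCU02433, NCU02438, NCU02450, NCU02453, NCU02458, NCU04676, NCU07815, NCU09999, NCU09637, acr-2, hH2A, hH2B, met-7, parp, csb, rad16, gel-4 and aod-3 were chosen after their values were seen. Of 9730 identifiers, 9729 matched the RefSeq gene table of assembly NC12, which gave 1118 symbols, gene order and gap ranks; no coordinates are printed because the authors' build is unknown here. Lists by product and composition of promoters and proteins were planned and are not analysed here, and 1 called DNA repair gene is counted in its list but not reported here. The symbols lsd1, eed, suz12 and dot-1 were not found. The lists not described above were 5 carotenoid genes (1 called higher, 0 lower), 10 heat shock genes (1 and 0), 14 vacuolar ATPase genes (0 and 2) and 6 tested genes of mismatch repair and meiotic recombination (1 and 0). The ATPase count was 0 without any 1 WT library or Δdim-5 replicate 1 or 2, and 1 without replicate 4. The carotenoid count was 0 without WT replicate 3 or 4 or Δdim-5 replicate 2, 3 or 4, and the mismatch repair count was 0 without WT replicate 1, 2 or 4 or Δdim-5 replicate 2, 3 or 4.

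Alternatives were RLE, upper-quartile and total-count scaling, DESeq2 1.42.0, limma-voom (limma 3.58.1), no filter, a filter at 5 CPM, the 8 libraries alone, leaving out each library, the replicate number as a block, the share outside genes as covariate, leaving out the 20 most counted genes, thinning to 7164944 counts, and an adjusted p under 0.01.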

Additional observations from a re-analysis of the deposited data

Results flagged for a closer look

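Within 4 libraries of a strain, a value was singled out when its distance from the nearest other was an unusually large part of the group's range (Dixon's criterion). This was so for 7 of 164 groups of named genes, where chance singles out about 1 in 20, or 8.2. In replicate 1 of Δdim-5, NCU09999 had 1.30 CPM, pks-4 had 8.80 CPM and NCU08696 had 0 CPM, each below the other mutant libraries. In replicate 4 of Δdim-5, NCU04676 had 6.39 CPM, above the others. In replicate 2 of Δdim-5, NCU07770 had 12.1 CPM and rad16 had 30.1 CPM, both above the others. In replicate 1 of WT, NCU10009 had 73.3 CPM, above the others. In each of these 7 genes the strains did not overlap, but the genes were named with their values known.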

How the results depend on the processing

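At an adjusted p under 0.01, 687 genes were called, 379 higher and 308 lower, and 36 were higher near the ends. The other scalings, tools, filters and fits gave 1061 to 1821 calls, from leaving out 1 library (1061 to 1377, of which 571 to 770 higher and 490 to 607 lower) to DESeq2 (987 and 834). Under these, 71.2% to 99.9% of the 1405 calls were kept and 0 turned. The share called lower beside the gaps was 19.2% with 40 genes on each side. The count of 80 there was 66 to 93 over the 20 alternative fits (68 to 77 on leaving out 1 library), and rises near the ends numbered 44 to 79 (44 to 62). The dim-5 log2 fold change was -7.78 to -6.83 on leaving out 1 library; the filter at 5 CPM removed this gene. The replicate numbers did not pair the libraries (correlations of same-numbered deviations from -0.04 to 0.05). The numbers are those of the sample titles; the deposited tables are numbered otherwise, and the 2 pairs sharing a number there had -0.11 and 0.07. The replicate block by title number gave 1504 calls, 808 higher and 696 lower. Of 76 named genes, 62 kept direction and call under each of the 20 alternative fits that gave them a value. The log2 fold changes of 3 genes that were not called changed sign. They were dim-2 (0.075 with the share of reads outside genes as covariate), eas (-0.57 to 3.39 on leaving out 1 library) and fl (-0.15 to 0.32), both lowest without Δdim-5 replicate 2. The pks-4 call was lost with that covariate (adjusted p = 0.0632 in edgeR). The cause of these shifts was not tested. Thinning every library to the lowest total left 1322 calls.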
